A study of Mus musculus with 6 samples.

Results

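The genes described here encode the subunits of the proteasome, measured by RNA-seq in C2C12 cells. Members were taken by symbol alone: every gene name made of Psma, Psmb, Psmc or Psmd and a number, leaving out Psmb8, Psmb9 and Psmb10, the interferon-inducible subunits of the immunoproteasome. The rule found 36 of the 20950 gene names in the expression table, 16 of them subunits of the core particle (Psma and Psmb) and 20 of the regulatory particle (Psmc and Psmd). C2C12 is a mouse myoblast line that proliferates in serum-rich medium and differentiates into myotubes once serum is lowered. The study asked how exosomes, small membrane vesicles carried in fetal bovine serum (FBS), affect this differentiation. Growing cells in 10% FBS gave 1 library, and cells in differentiation medium gave 1 library each for 2% horse serum (2% HS), 2% HS + exosome and 0.2% FBS, and 2 libraries for 0.2% FBS + exosome. The exosomes were isolated from FBS with commercial kits and added in the quantity that 10% FBS would bring. All 6 libraries came from 1 cell line. No source says whether the 2 libraries of 0.2% FBS + exosome came from separate cultures, and every p-value below, except where 1 exosome effect over both media is named, rests on the spread between these 2, which may be technical.

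The proteasome degrades proteins tagged with ubiquitin. Its core particle is a barrel of stacked alpha and beta rings whose proteolytic sites face an inner chamber, and the alpha rings hold the gate to that chamber. The regulatory particle caps the barrel: its base carries a ring of ATPases that unfolds the substrate, and its lid carries the enzyme that cuts the ubiquitin chain off. In muscle the proteasome is known for the breakdown of myofibrillar proteins during wasting, and its subunit genes are known to be induced together, through the transcription factor Nfe2l1 and antioxidant response elements in their promoters, when proteasome activity is impaired.

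Because the members are known to share this promoter element, its core was searched in the promoters. RefSeq promoters on GRCm38.p6, each running from 250 bases before to 50 bases after the start, were found for 29 of the 36 members. The core letters TGACNNNGC, searched on both strands, were present in 5 of the 29 (17.2%), against 17.2% of the promoters of the genes tested and 12.4% of all 32851 promoters. The 3 windows below belong to the catalytic subunits Psmb5 and Psmb6 and to the ATPase Psmc6, with the matched letters in capitals. Psmb5, chr14:54618023-54618052, is read on the minus strand, the strand of the gene, with the match beginning at position -47 from the start. Psmb6, chr11:70525338-70525367, is read on the plus strand of the gene, with the match beginning at position -9 and ending directly before the start. Psmc6, chr14:45329587-45329616, is read on the minus strand, opposite to the gene, with the match beginning at position -227 counted along the gene.
Psmb5: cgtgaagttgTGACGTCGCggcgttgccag
Psmb6: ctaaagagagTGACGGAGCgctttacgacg
Psmc6: tgagcaatgccTGACTTAGCtactggctgg
The other 2 promoters with a match were those of Psmd9 and Psmd12. CCAAT was present in 41.4% of the members' promoters and in 43.4% of the promoters of tested genes. GGGCGG, the GC box, was present in 62.1% against 71.1%, and GAANNTTC, a pair of heat shock element units, in 3.45% against 6.82%. For all 4 motifs the members' share was, at this precision, equal to or below that of the genes tested, and a match is a description of letters, not a site of binding.

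Levels were given by the authors as FPKM (fragments per kilobase of transcript, scaled to the mapped reads of the library), which allows genes to be compared per length. The libraries summed to between 461439 and 515215 FPKM, and the size of the steps between low values put their depth near 33700000 to 39400000 reads. A tested member then had a median of about 5301 reads per library and at least about 570, which is a counting SD of 0.06 on the log2 scale. Myoblast markers (Myod1, Des, Cdh15, Myf5) summed to between 806 and 1310 FPKM, most of it Des. Markers of blood and platelets summed to between 3.28 and 20.6 FPKM, with both globin genes listed at 0 and the 2 highest sums, 9.33 and 20.6 FPKM, in the 0.2% FBS + exosome libraries. Adipocyte markers stayed at or under 1.62 FPKM in sum and osteoblast markers at or under 0.351, while neuron markers reached 9.2 FPKM, nearly all of it Tubb3.

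Of the 36 members, 34 had a mean of at least 1 FPKM over the 6 libraries and were tested among 10726 genes. The remaining pair were the tissue-restricted forms. Psma8, the testis form of an alpha subunit, was listed at 0 in all 6 libraries, and Psmb11, the thymus form of a catalytic beta subunit, lay between 0.0511 and 0.207 FPKM. The 34 tested members were abundant, with a median of 117 FPKM in 10% FBS against 11.8 FPKM over all genes tested. Psmc3, an ATPase of the base, was the highest member in every library, at 234 to 426 FPKM. The 3 lowest were Psmd5, Psmd9 and Psmd10, which are chaperones for assembly of the base and are not part of the finished particle. Psmd9 was the lowest in every library, at 7.71 to 9.38 FPKM. Without these chaperones the lowest level in a library was 52.6 to 72.1 FPKM, for Psmd11 or Psmd13 of the lid.

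**Figure D1:**
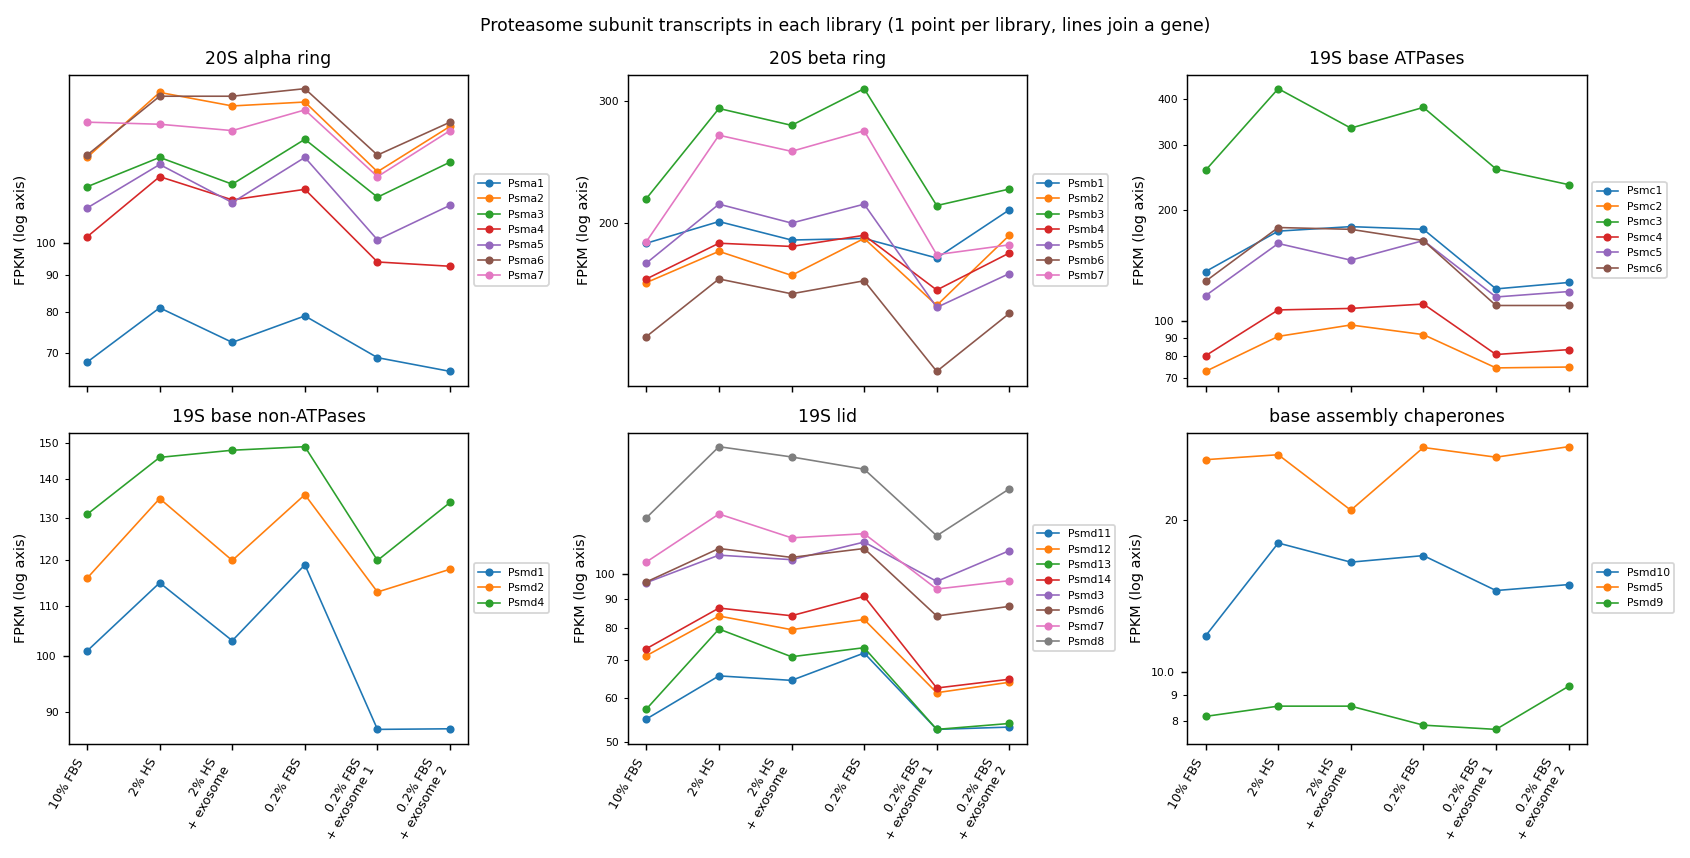
FPKM on a log axis for each of the 34 tested proteasome subunits in the 6 libraries, 1 panel per class and 1 point per library, with lines joining the points of a gene. Most subunits stand highest in 0.2% FBS or 2% HS and lowest in 0.2% FBS + exosome replicate 1, whereas Psmb1, Psmb2, Psmd5 and Psmd9 stand highest in replicate 2.

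The summed level of the 34 members was 3914 FPKM in 10% FBS, 4867 in 2% HS, 4561 in 2% HS + exosome, 4843 in 0.2% FBS, and 3669 and 3962 in the 2 libraries of 0.2% FBS + exosome. As a share of all FPKM in the library these sums were 0.835% in 10% FBS, 1.03% in 2% HS, 0.973% in 2% HS + exosome and 0.983% in 0.2% FBS, against 0.795% and 0.769% in 0.2% FBS + exosome. By this share the 3 other differentiating libraries stood above growing cells and both 0.2% FBS + exosome libraries below, whereas by summed level replicate 2 stood slightly above growing cells. Of the 34 members, 17 were highest in 0.2% FBS, 11 in 2% HS, 4 in 0.2% FBS + exosome replicate 2 and 2 in 2% HS + exosome. The lowest value was in 0.2% FBS + exosome replicate 1 for 26 members, against 15.2% of all genes tested, and in replicate 2 for 3, against 11.7%. After the scaling described below, these counts were 15 members, against 18.4% of all genes, and 17 members, against 20.8%.

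The first comparison asked what added exosomes did to cells differentiating in 0.2% FBS. In both 0.2% FBS + exosome libraries, 30 of the 34 members lay below the 0.2% FBS library, 12 of 14 core and 18 of 20 regulatory subunits, whereas 27.5% of all genes tested did so. On the log2(FPKM + 1) scale the members' median change was -0.30, with -0.36 in replicate 1 and -0.27 in replicate 2 (SD 0.065, n = 2), against a median of 0.14 over all genes tested. The ATPases of the base stood lowest as a class, with a median of -0.49, and the assembly chaperones were nearest to no change, with a median of -0.027. After scaling these class medians were -0.64 and -0.17. In limma, fitted to all genes, 0 of the 34 members passed an adjusted p of 0.05, whereas 12.5% of all genes tested did, 464 lower and 879 higher. At an unadjusted p under 0.05 limma picked 9 members, against 31.5% of all genes tested. The unadjusted count depended on the setting: it was 13 members without the trend, against 30.2%, and 19 members after scaling, against 29.5%. With 1 exosome effect over both media it fell to 1 member, against 708 of the 10726 genes.

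Among the alpha ring genes, whose products form the gate, all 7 tested members lay below the control in both libraries, with a median change of -0.22. Psma4 had the lowest change of the class: 119 FPKM in 0.2% FBS, 94.0 and 92.7 FPKM with exosomes, 124 and 115 FPKM in 2% HS without and with exosomes, and 102 FPKM in 10% FBS. Both 0.2% FBS + exosome libraries stood below the other 4, and the mean change was -0.34 (SE 0.20, limma adjusted p 0.273). Psma3 had the smallest change of the class, at 140 FPKM in 0.2% FBS, 116 and 130 FPKM with exosomes, 132 and 121 FPKM in 2% HS without and with exosomes, and 120 FPKM in 10% FBS. Its replicate 2 lay among the other libraries, and the mean change was -0.18 (limma adjusted p 0.6).

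The 7 tested beta ring genes spread more widely, from -0.57 for Psmb7 to 0.023 for Psmb1. The 3 catalytic subunits had a median change of -0.42. Psmb5, the chymotrypsin-like subunit, was at 213 FPKM in 0.2% FBS, 151 and 169 FPKM with exosomes, 213 and 200 FPKM in 2% HS without and with exosomes, and 175 FPKM in 10% FBS. Psmb6, the caspase-like subunit, was at 165 FPKM in 0.2% FBS, 122 and 148 FPKM with exosomes, 166 and 158 FPKM in 2% HS without and with exosomes, and 137 FPKM in 10% FBS. Psmb7, the trypsin-like subunit, was at 272 FPKM in 0.2% FBS, 180 and 186 FPKM with exosomes, 268 and 254 FPKM in 2% HS without and with exosomes, and 188 FPKM in 10% FBS. For Psmb5 and Psmb7 both 0.2% FBS + exosome libraries were the lowest of the 6, whereas for Psmb6 the growing cells lay between them. The change of Psmb7 was -0.57 (SE 0.24, limma adjusted p 0.141), that of Psmb5 -0.42 (SE 0.23, limma adjusted p 0.254) and that of Psmb6 -0.30 (SE 0.23, limma adjusted p 0.413). Psmb1, a beta subunit without a proteolytic site, gave 190 FPKM in 0.2% FBS, 178 and 209 FPKM with exosomes, 201 and 189 FPKM in 2% HS without and with exosomes, and 187 FPKM in 10% FBS. The 2 exosome libraries lay on either side of the control for Psmb1 and also for Psmb2.

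All 6 ATPases of the base lay below the control in both exosome libraries, and the libraries were close to each other. Psmc3, whose tail docks into the alpha ring, was at 379 FPKM in 0.2% FBS, 258 and 234 FPKM with exosomes, 426 and 333 FPKM in 2% HS without and with exosomes, and 256 FPKM in 10% FBS. Psmc6 was at 165 FPKM in 0.2% FBS, 110 and 110 FPKM with exosomes, 179 and 177 FPKM in 2% HS without and with exosomes, and 128 FPKM in 10% FBS. For Psmc6 the 0.2% FBS + exosome libraries were the lowest of all, while for Psmc3 they lay on either side of growing cells. The change was -0.62 for Psmc3 (SE 0.26, limma adjusted p 0.151) and -0.58 for Psmc6 (SE 0.21, limma adjusted p 0.102). Psmc2 had the smallest change of the class, at 91.7 FPKM in 0.2% FBS, 74.5 and 74.9 FPKM with exosomes, 90.7 and 97.4 FPKM in 2% HS without and with exosomes, and 72.9 FPKM in 10% FBS. That change was -0.29 (SE 0.19, limma adjusted p 0.32), and the other 3 ATPases lay between -0.50 and -0.43.

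The 3 base subunits without ATPase activity had a median change of -0.23. Psmd1, the largest scaffold of the base, was at 119 FPKM in 0.2% FBS, 87.0 and 87.1 FPKM with exosomes, 115 and 103 FPKM in 2% HS without and with exosomes, and 101 FPKM in 10% FBS. Both exosome libraries were the lowest of the 6, with a change of -0.44 (SE 0.19, limma adjusted p 0.157). Psmd4, a receptor for ubiquitin chains, was at 149 FPKM in 0.2% FBS, 120 and 134 FPKM with exosomes, 146 and 148 FPKM in 2% HS without and with exosomes, and 131 FPKM in 10% FBS. Growing cells lay between its exosome libraries.

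All 8 lid genes lay below the control in both exosome libraries, with a median of -0.39. Psmd14, the deubiquitinase that removes the chain during degradation, had the lowest adjusted p of any member. Its levels were 91.1 FPKM in 0.2% FBS, 62.4 and 64.7 FPKM with exosomes, 86.8 and 84.1 FPKM in 2% HS without and with exosomes, and 73.4 FPKM in 10% FBS. Both exosome libraries were the lowest of the 6, and the change was -0.51 (SE 0.18, limma adjusted p 0.0972). Psmd13 was at 73.7 FPKM in 0.2% FBS, 52.6 and 53.9 FPKM with exosomes, 79.6 and 71.0 FPKM in 2% HS without and with exosomes, and 57.2 FPKM in 10% FBS, in the same order as Psmd14 for the 3 lowest libraries. The change of Psmd13 was -0.46 (SE 0.18, limma adjusted p 0.117). Psmd3, a lid scaffold, had the smallest change of the class, with 114 FPKM in 0.2% FBS, 96.9 and 110 FPKM with exosomes, 108 and 106 FPKM in 2% HS without and with exosomes, and 96.4 FPKM in 10% FBS. Replicate 2 differed from the control by -0.046 only.

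The 3 assembly chaperones had the lowest levels of the tested members. Psmd10 (gankyrin) was at 17.0 FPKM in 0.2% FBS, 14.5 and 14.9 FPKM with exosomes, 18 and 16.5 FPKM in 2% HS without and with exosomes, and 11.8 FPKM in 10% FBS. For Psmd10 the exosome libraries lay below the control but above growing cells. Psmd9 was at 7.86 FPKM in 0.2% FBS, 7.71 and 9.38 FPKM with exosomes, 8.57 and 8.57 FPKM in 2% HS without and with exosomes, and 8.18 FPKM in 10% FBS, with the exosome libraries on either side of the control. Psmd5 was likewise on either side, with changes of -0.060 and 0.006.

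**Figure D2:**
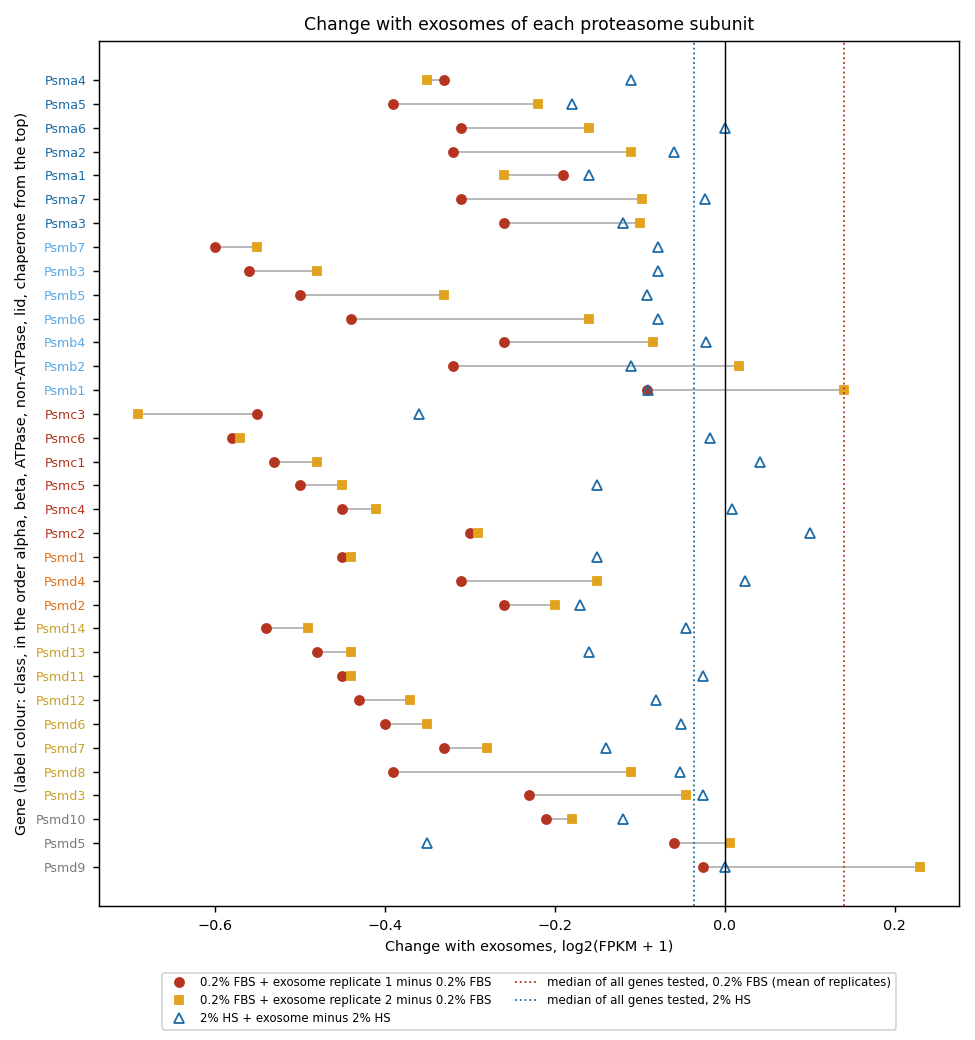
Change with exosomes on the log2(FPKM + 1) scale for each tested subunit, in 0.2% FBS for replicate 1 (circles) and replicate 2 (squares) and in 2% HS (open triangles), with dotted lines at the medians of all genes tested. In 0.2% FBS the subunits lie left of 0 and of the median of 0.14 with 4 exceptions that straddle 0. In 2% HS their median is -0.079, and Psmc3 (-0.36) and Psmd5 (-0.35) lie farthest from 0.

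The core and regulatory subunits differed in how far the 2 exosome libraries lay apart. The median size of the difference between replicates was 0.17 for core and 0.051 for regulatory subunits, against 0.15 over all genes tested, and after scaling 0.11 and 0.024, against 0.13. Replicate 1 was the lower library for 31 of the 34 members, against 63.6% of all genes, and after scaling for 16, against 52.6%. A log2 change below -0.5 was reached by 6 members (Psmc3, Psmc6, Psmb7, Psmb3, Psmd14 and Psmc1), against 7.03% of all genes, and by 3 members without replicate 1. For that setting the share of all genes was not counted. No member went past the study's threshold of 1 or -1 in either direction, against 4.05% of all genes tested.

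The deposited values place most genes slightly higher in the 0.2% FBS + exosome libraries. Bringing the libraries to 1 shared 75th percentile of expressed genes moved the median of all genes tested from 0.14 to 0.007 and the members' median from -0.30 to -0.45. On that scale 33 of the 34 members lay below the control in both libraries, against 40.8% of all genes, and 14 lay below -0.5, against 10.3%. Limma then called 3 members, against 11.1% of all genes tested. All 3 were lower: Psmc6 fell by 0.73 (SE 0.18, adjusted p 0.0475), Psmd13 fell by 0.61 (SE 0.15, adjusted p 0.0487) and Psmd14 fell by 0.66 (SE 0.16, adjusted p 0.0434). These 3 calls stand on the scaled values only. Psmb1 and Psmd9 turned sign with the scaling, from 0.023 to -0.13 and from 0.10 to -0.031.

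**Figure D3:**
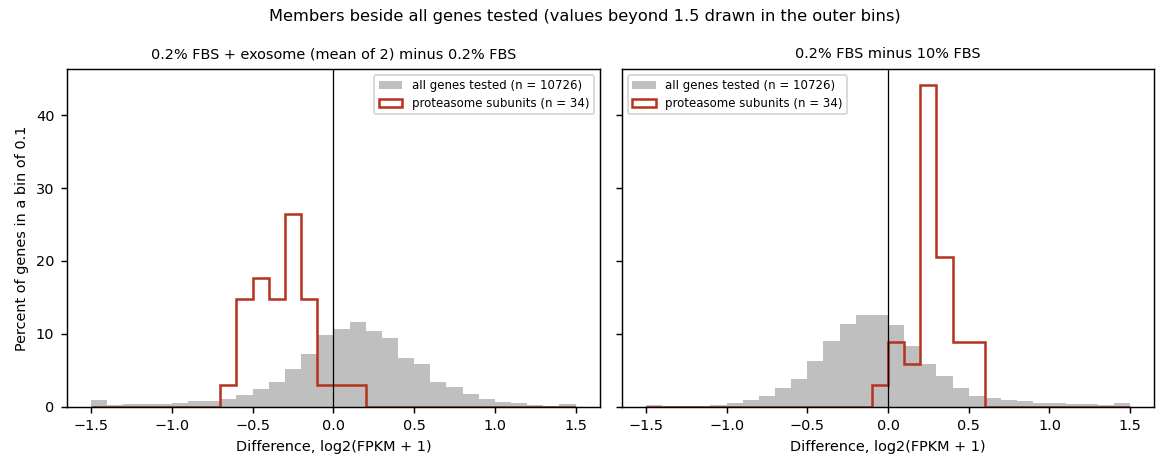
Percent of genes per bin of 0.1 on the log2(FPKM + 1) scale, for all 10726 genes tested (grey) and the 34 proteasome subunits (outline), for 0.2% FBS + exosome minus 0.2% FBS on the left and for 0.2% FBS minus 10% FBS on the right. The subunits lie mostly left of 0 on the left and right of 0 on the right, and both panels use the same 0.2% FBS library.

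Other measures also differed between these libraries, not all in the direction of the members. Markers of differentiating muscle (Myog, Tmem8c, Myh3, Ckm, Acta1) summed to 9360 FPKM in 0.2% FBS, 4280 and 3030 FPKM with exosomes, 8470 and 8130 FPKM in 2% HS without and with exosomes, and 3990 FPKM in 10% FBS. All 5 of them lay below the control in both exosome libraries, with a median change of -1.37, and limma called 1, Tmem8c. Of the myoblast markers, Des stood at 1043 FPKM in 0.2% FBS and 559 and 543 FPKM with exosomes (-0.92, limma adjusted p 0.12), while Myf5 rose from 5.39 FPKM to 10.1 and 12.9 FPKM (0.96, limma adjusted p 0.0196). Myod1 changed by -0.23 and Cdh15 by 0.29 (limma adjusted p 0.472 and 0.387). Des was lower in 10% FBS, at 630 FPKM, than in 0.2% FBS or 2% HS (1061 FPKM), as were the summed markers of differentiating muscle. Limma also called 2 markers of other cell types, Ppbp of platelets, which rose from 3.42 FPKM to 7.86 and 17 FPKM (1.52, adjusted p 0.0293), and Tubb3 of neurons, which fell from 9.2 FPKM to 3.85 and 2.21 FPKM (-1.37, adjusted p 0.016). In bulk RNA, fewer differentiating cells and less of a transcript per cell cannot be told apart. The 7 stress genes summed to 405 FPKM in the 0.2% FBS control, 770 FPKM in replicate 1 and 340 FPKM in replicate 2, and the range over all 6 libraries was 317 to 770 FPKM. The heat shock chaperone Hsph1 stood at 37.7, 174 and 33.0 FPKM in the same 3 libraries, Hspa1b at 1.9, 30 and 5.39 FPKM, and Dnajb1 at 12.5, 55 and 24.4 FPKM. Hsph1 was thus high in replicate 1, whereas Hspa1b and Dnajb1 lay above the control in both exosome libraries, and limma called Dnajb1 (1.49, adjusted p 0.0387, and 0.0791 after scaling). Hspb1 (244, 375 and 186 FPKM) and Bag3 (36.9, 78.5 and 35.5 FPKM) were above the control in replicate 1 and below it in replicate 2. Hmox1 lay below the control in both (72.2, 56.9 and 55.1 FPKM), and Hspa1a stayed at or under 0.164 FPKM. The part of these markers and of the stress genes in the members' change was not tested.

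Some members share sequence with other genes, which can move reads between them. For 24 of the 34 members no stretch of 75 bases, the read length, in the longest coding transcript occurs in another annotated gene, and 20 of these 24 lay below the control in both exosome libraries. The other 10 share stretches, mostly with pseudogenes, up to 40.0% of stretches for Psmb5, 39.8% for Psma5 and 33.1% for Psmb3, so their levels are uncertain. Exons of 8 members overlap a gene on the opposite strand, Psmb7 with Nek6, Psmc3 with Slc39a13 and Psmd13 with Sirt3 among them, and whether strand was used in the FPKM calculation is not given in the sources used here. These 3 partners lay above the control in both exosome libraries, Nek6 at 10.8 FPKM in 0.2% FBS and 14.6 and 13.3 FPKM with exosomes. The partners Htr2b of Psmd1 and AY074887 of Psma4 lay below it in both. Htr2b was at 0.968 FPKM in 0.2% FBS and AY074887 at 0.327 FPKM. Of the 19 members with neither limit, 16 lay below the control in both libraries, with a median of -0.25.

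The second comparison asked the same of cells differentiating in 2% HS, with 1 library on each side and no replicate check, so no test was made. With exosomes 29 of the 34 members lay lower, against 58.7% of all genes tested, and after scaling 23 did so, against 51.4%. The median change was -0.079, against -0.036 for all genes tested, and after scaling -0.046, against -0.007. No member went past 0.5 or -0.5, against 4.45% of all genes. The members ranged from -0.36 for Psmc3 (426 against 333 FPKM) and -0.35 for Psmd5 (26.9 against 20.9 FPKM) to 0.10 for Psmc2 (90.7 against 97.4 FPKM). The ATPases, lowest as a class in 0.2% FBS, had a median of -0.004 here, and the lid genes of -0.053. Scaling moved these class medians to 0.029 and -0.020.

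Whether the change with exosomes differed between the media was tested as the change in 0.2% FBS minus that in 2% HS. This difference was below 0 for 31 of the 34 members, against 32.9% of all genes tested, with a median of -0.24 against 0.18 for all genes tested. On the scaled values it was below 0 for 33 members, against 5156 of the 10726 genes. The scaled median was -0.42, against 0.019 for all genes tested. Limma called 0 of the 34 members, against 1.17% of all genes tested, and 0 had an unadjusted p under 0.05, against 19.5%. After scaling 5 members had an unadjusted p under 0.05, against 17.4%, and again 0 were called. Psmc6 had the lowest adjusted p of the members, with a difference of -0.56 (SE 0.32, limma adjusted p 0.372). The difference between the media was therefore not shown for any single subunit, and with 1 library in 3 of the 4 conditions medium and library cannot be told apart.

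The next question was how the subunits in 0.2% FBS and 2% HS differed from growing cells, from single libraries and without a test. Serum and differentiation change together in this comparison and cannot be told apart. In 0.2% FBS 33 of the 34 members lay above growing cells in 10% FBS, against 38.5% of all genes tested, and in 2% HS likewise 33 of 34, against 40.1%. The exceptions were Psmd9 in 0.2% FBS, at -0.051, and Psma7 in 2% HS, at -0.008, and both were above 0 after scaling, where all 34 members lay above growing cells in either medium, against 47.2% of all genes in 0.2% FBS and 46.8% in 2% HS. The members' median difference from 10% FBS was 0.25 in 0.2% FBS and 0.26 in 2% HS, against -0.091 and -0.081 for all genes tested. A difference above 0.5 was reached in 0.2% FBS by Psmc3, Psmb7 and Psmb3 (0.56, 0.53 and 0.53), against 6.48% of all genes. In 2% HS it was reached by Psmc3, Psmd10 and Psmb7 (0.73, 0.58 and 0.51), against 6.82%. After scaling Psmc4, Psmc5 and Psmd10 also reached it in 0.2% FBS (0.54, 0.57 and 0.56). In 2% HS Psmc5, Psmc6 and Psmd13 then did so as well (0.53, 0.55 and 0.53). The share of all genes above 0.5 after scaling was not counted, so 6.48% and 6.82% cannot be set beside these scaled values. The ATPases were the highest class in both media, with medians of 0.42 in 0.2% FBS and 0.44 in 2% HS, and their summed level was 789 FPKM in 10% FBS, 1088 in 0.2% FBS and 1140 in 2% HS. Both differences use the same 10% FBS library, and the 0.2% FBS library is also the control of the first comparison, so that its own error enters both with opposite signs. Summed muscle markers were higher in the same 2 media, at 9360 and 8470 FPKM against 3990 FPKM, and their part in the members' difference was not tested.

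The 0.2% FBS + exosome libraries were also set against growing cells. The members' median difference from 10% FBS was -0.023, with -0.074 in replicate 1 and 0.024 in replicate 2 (SD 0.069, n = 2), against 0.037 for all genes tested. In both exosome libraries 13 members lay below growing cells, against 31% of all genes, and 5 above, against 42%, while the libraries lay on either side for the remaining 16. The mean of both libraries was below growing cells for 19 members, against 43.6% of all genes, and after scaling for 31 members, against 54.4%, with a median of -0.095. Limma called 0 of the 34 members, against 0.0653% of all genes, which is 7 genes, and 0 had an unadjusted p under 0.05, against 11.5%. The lowest adjusted p was that of Psmd10, whose 14.5 and 14.9 FPKM with exosomes stood above 11.8 FPKM in growing cells by 0.30 (SE 0.16, limma adjusted p 0.515). The summed ATPases were at 762 and 750 FPKM with exosomes, against 789 FPKM in 10% FBS.

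**Figure D4:**
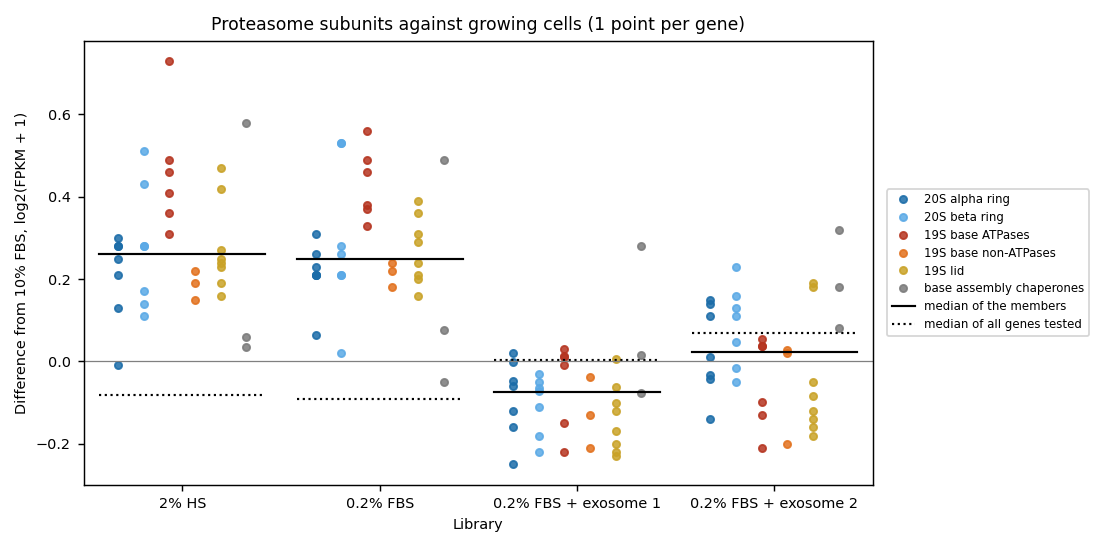
Difference from 10% FBS on the log2(FPKM + 1) scale for each tested subunit (points, coloured by class) in 2% HS, 0.2% FBS and the 2 libraries of 0.2% FBS + exosome, with the members' median (solid line) and the median of all genes tested (dotted line). The members' medians are 0.26, 0.25, -0.074 and 0.024 from left to right, and the ATPases stand high in the first 2 only.

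Genes that work around the particle were taken as 9 lists with 36 genes, of which 34 were tested. Their median change with exosomes in 0.2% FBS was 0.009, with 14 lower and 11 higher in both libraries, and limma called 1 lower and 3 higher, which is 11.8% of them against 12.5% of all genes tested. These 4 calls were lost when values below 1 FPKM were raised to 1, with no filter on low values and with 1 exosome effect over both media (limma adjusted p 0.134 to 0.707). Among activators of the core, Psme1, a subunit of the PA28 cap, was at 30 FPKM in 0.2% FBS, 44.6 and 55.4 FPKM with exosomes, 35.3 and 32.9 FPKM in 2% HS without and with exosomes, and 40.0 FPKM in 10% FBS. Psme1 rose with exosomes by 0.71 (SE 0.19, limma adjusted p 0.0444), though not past the threshold after scaling (limma adjusted p 0.0695) or without the trend (0.0635). Its partner Psme2 was at 62.5 FPKM in 0.2% FBS and 89.4 and 89.7 FPKM with exosomes (0.51, limma adjusted p 0.0985). Of the immunoproteasome subunits, Psmb10 was at 11.2 FPKM in 0.2% FBS and 15.7 and 22.3 FPKM with exosomes (0.69, limma adjusted p 0.0676), while Psmb8 and Psmb9 stayed at or under 0.468 FPKM. Psme3, which forms another PA28 cap, lay below the control in both exosome libraries (-0.27 and -0.14), as did the activator Psme4 (-0.007 and -0.16), and neither passed the test.

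Among regulators of proteasome genes, Nfe2l1 was at 121 FPKM in 0.2% FBS, 107 and 107 FPKM with exosomes, 140 and 186 FPKM in 2% HS without and with exosomes, and 92.3 FPKM in 10% FBS. Nfe2l1 did not pass the test in 0.2% FBS (-0.17, limma adjusted p 0.616). Nfe2l2, the factor of the oxidative stress response, was at 50.1 FPKM in 0.2% FBS and 80.0 and 87.7 FPKM with exosomes, and it rose by 0.73 (SE 0.18, limma adjusted p 0.0369, and 0.0563 after scaling). Vcp, the segregase that delivers substrates, was at 318 FPKM in 0.2% FBS and 264 and 259 FPKM with exosomes (-0.28, limma adjusted p 0.502). Among proteins bound to the particle, the deubiquitinase Usp14 was at 29.2 FPKM in 0.2% FBS and 22.6 and 20.4 FPKM with exosomes (-0.42, limma adjusted p 0.119). Of the assembly chaperones of the core, Pomp was at 109 FPKM in 0.2% FBS and 89.0 and 99.1 FPKM with exosomes, whereas Psmg1 and Psmg4 lay above the control with changes of 0.31 each, and none of the 5 passed the test. Of the 2 subunits that carry other symbols, Adrm1, a ubiquitin receptor, had a change of -0.16 and Shfm1 of 0.054. Against 10% FBS, Adrm1 stood higher in 0.2% FBS and 2% HS (0.37 and 0.22). Shfm1 stood lower there, unlike most members, at 335 FPKM in 10% FBS, 235 FPKM in 0.2% FBS and 236 FPKM in 2% HS (-0.51 and -0.50). Among the shuttles that carry substrates to the particle, Ubqln2 had the largest change, 0.48 (limma adjusted p 0.0798).

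The 2 muscle ubiquitin ligases were called in opposite directions, as deposited and after scaling, though not under the 3 settings named above. Trim63 (MuRF1) was at 27.0 FPKM in 0.2% FBS, 17 and 14 FPKM with exosomes, 31.5 and 30.4 FPKM in 2% HS without and with exosomes, and 14.4 FPKM in 10% FBS. Fbxo32 (atrogin-1) was at 24.5 FPKM in 0.2% FBS, 47.8 and 53.7 FPKM with exosomes, 23.5 and 27.5 FPKM in 2% HS without and with exosomes, and 45.3 FPKM in 10% FBS. In 0.2% FBS Trim63 fell by 0.77 (SE 0.17, limma adjusted p 0.0285) and Fbxo32 rose by 1.02 (SE 0.17, limma adjusted p 0.0133). For both ligases the 0.2% FBS + exosome libraries lay near growing cells and away from the other 3 differentiating libraries.

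**Figure D5:**
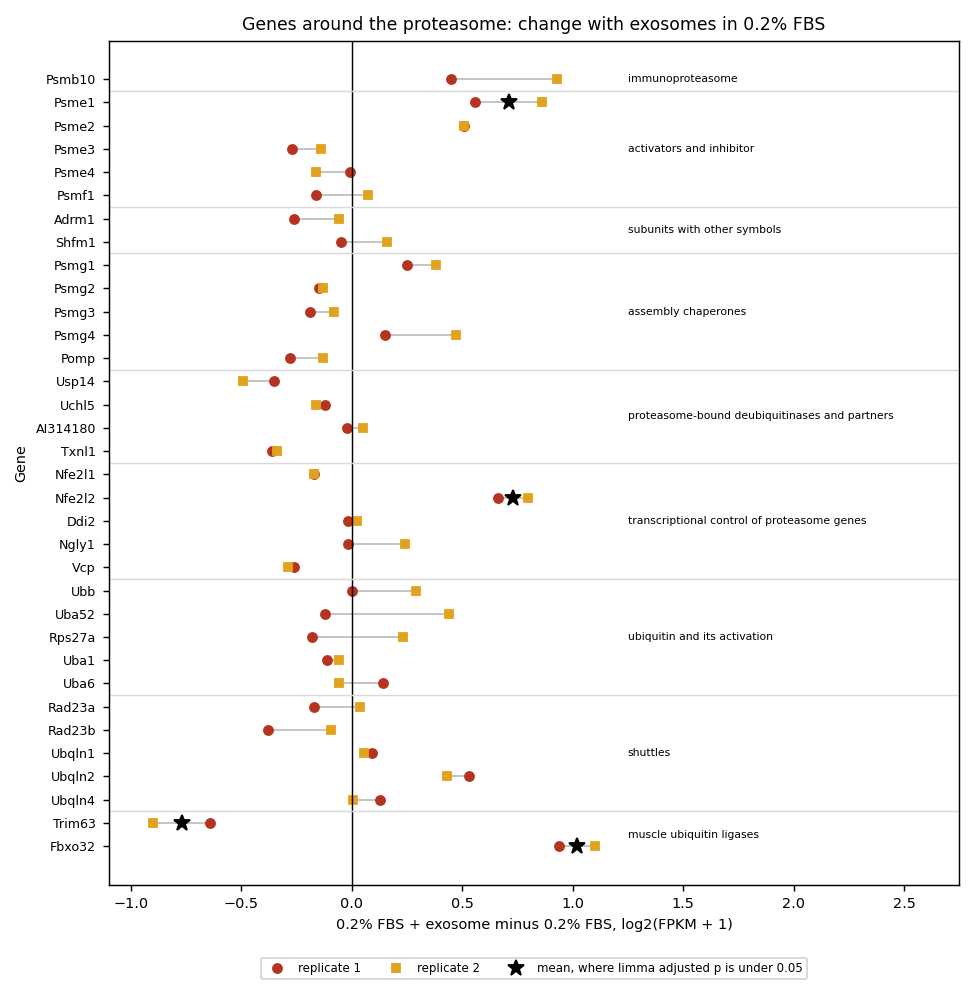
Change with exosomes in 0.2% FBS on the log2(FPKM + 1) scale for the 34 tested genes around the proteasome, by list, for replicate 1 (circles) and replicate 2 (squares), with a star at the mean where limma's adjusted p was under 0.05. Psme1, Nfe2l2 and Fbxo32 lie to the right of 0 and Trim63 to the left in both libraries.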

How the data were processed

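RNA was sequenced as 75-base single reads from a stranded mRNA kit. According to the study's methods and the submitters' processing notes, the authors trimmed reads with cutadapt 1.9.1, mapped them to mm10 with TopHat2 2.1.0 and calculated FPKM with Cufflinks; the table was deposited in FPKM, without counts. Of its names, 5 repeated and their 10 rows were left out. Values were taken as log2(FPKM + 1). Genes averaging 1 FPKM or more over the 6 libraries were fitted with limma 3.58.1 (R 4.3.3) with a trend, 1 mean per condition and Benjamini-Hochberg adjustment over 10726 genes. The spread comes from the 2 libraries of 0.2% FBS + exosome, and single libraries were assumed to vary alike. The script was tested on simulated data.

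Members and lists were chosen with earlier results of these data known. Values in every library are given for catalytic subunits, the extremes of each class, Psmd4, Psmd14 and members called. Alternatives were a pseudocount of 0.1, a floor of 1 FPKM, scaling to the 75th percentile, no filter, no trend, 1 exosome effect over both media, and leaving out each exosome library. Depth was estimated from steps between low values: 70.8% to 74.1% lay within 0.1 of a whole read, against 20% if spread evenly. Gene positions and shared stretches came from GENCODE transcripts on mm10, and promoters from RefSeq. 1 gene of the lists around the proteasome is not reported here.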

Additional observations from a re-analysis of the deposited data

Results flagged for a closer look

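For 5 subunits both 0.2% FBS + exosome libraries lay below their control while the 2% HS + exosome library lay at or above its own, by 0.000 for Psma6, 0.008 for Psmc4, 0.024 for Psmd4, 0.041 for Psmc1 and 0.10 for Psmc2. This pattern held for 12.1% of all genes tested. After scaling it held for 10 members, against 20.7% of all genes. Taking the 2% HS change away from the 0.2% FBS change left -0.24 for Psma6, an alpha ring subunit, and -0.26 for the ubiquitin receptor Psmd4. The same difference was -0.55 for Psmc1, -0.39 for Psmc2 and -0.44 for Psmc4, which are 3 of the 6 ATPases of the base. None of these differences passed limma's test of the difference itself, with adjusted p of 0.744 for Psma6, 0.714 for Psmd4, 0.391 for Psmc1, 0.479 for Psmc2 and 0.44 for Psmc4. The 2% HS side rests on 1 library with and 1 without exosomes.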

How the results depend on the processing

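Scaling the libraries to the same 75th percentile had the widest effect: members called by limma with exosomes in 0.2% FBS went from 0 to 3 (all genes from 12.5% to 11.1%), members below -0.5 from 6 to 14 (all genes from 7.03% to 10.3%), and the members' medians to -0.45 for exosomes in 0.2% FBS, -0.42 for the difference between media, -0.095 for 0.2% FBS + exosome against 10% FBS and 0.32 for 0.2% FBS against 10% FBS. Of all genes called with exosomes in 0.2% FBS, 34.5% were lower as deposited and 58.5% after scaling. For the difference between media the lower share was 74.4% and 86.1%. Leaving out 1 exosome library gave a median difference between media of -0.30 to -0.17, a median against 10% FBS of -0.074 to 0.024, which turned sign without replicate 1, and 3 to 6 members below -0.5. For single exosome libraries the share of all genes below -0.5 was not counted. With the floor, with no filter or with 1 exosome effect over both media, limma called 0 of all genes with exosomes in 0.2% FBS in place of 1343, and the cause was not tested. The floor and no filter likewise gave 0 genes in place of 125 for the difference between media and in place of 7 against 10% FBS, where scaling gave 2. Over the alternatives the lowest adjusted p of a member with exosomes in 0.2% FBS ranged from 0.0434 to 0.705. Of 67 values under an alternative, 57 kept their direction and their side of the threshold or lay within the spread. This tally does not measure stability, because many of these values could hardly change. Tested members lay at 7.71 FPKM or more, where a pseudocount of 0.1, the floor or no filter barely moves medians and sign counts. Member counts of 0 from fits that called 0 of all genes are no check either. The recounts of members below or above a control were chosen after seeing the data. No paired analysis was possible because the groups compared share fewer than 2 replicate numbers, and with 1 mean per condition no residual degree of freedom remained for a test without either exosome library. With 1 library in 4 of the 5 conditions, library and condition cannot be told apart there.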
